A study of Mus musculus with 30 samples.

Results

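The genes of the proteasome were examined in 30 RNA-seq samples of mouse embryonic stem cells (ESC) and of the cells derived from them on the way to blood. A gene was a member if its symbol was Psm, then a letter from a to g, then a number. The rule found 49 of the 14685 genes in the table of FPKM values (fragments scaled to transcript length and library size, which allows levels to be compared between genes). They were 7 alpha and 7 beta subunits of the 20S core, the 3 immunoproteasome subunits Psmb8, Psmb9 and Psmb10, 9 subunits of the 19S base and 8 of the 19S lid, 7 assembly chaperones, 4 activators, the inhibitor Psmf1 and the testis alpha subunit Psma8. Psme2b, a copy of Psme2, and Psmc3ip, which encodes a meiotic recombination factor and no subunit, also matched the rule. Each of the 49 exceeded 1 FPKM in some sample and thus entered the test, in which 14525 genes took part. Psmb11, the thymus form of a beta subunit, was not analysed here.

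Cells of the E14 line were studied as WT, as Sp1 ΔDBD/ΔDBD cells and as Sp3-/- cells. Sp1 and Sp3 are ubiquitous transcription factors that bind GC-rich promoter elements. Sp1 ΔDBD/ΔDBD cells lack the part of Sp1 that encodes its DNA-binding domain but keep a truncated transcript, and Sp3-/- cells lack Sp3. The 5 populations were ESC, which were maintained on embryonic fibroblast feeders and then passaged without them, Flk1+ cells from embryoid bodies, and 3 populations sorted from blast cultures. HE1 was KIT+ CD41- Tie2+ and HE2 was KIT+ CD41+ Tie2+ (both hemogenic endothelium), and progenitors were KIT+ CD41+ Tie2-. Each of the 15 combinations had 2 biological replicates. Each mutant was a single cell line, so an effect of the mutation and a difference between lines cannot be told apart. In bulk samples, fewer cells of a type and less RNA per cell cannot be told apart either.

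The 26S proteasome degrades proteins that carry ubiquitin chains. Its 20S core is a barrel of alpha and beta rings with the proteolytic sites inside, and the 19S particle on top binds the ubiquitin chain, removes it and feeds the unfolded protein into the core. In immune and interferon-stimulated cells, Psmb8, Psmb9 and Psmb10 take the place of the catalytic subunits Psmb5, Psmb6 and Psmb7, and activators such as PA28 and PA200 can replace the 19S particle. The comparisons asked how the levels of these genes changed along differentiation in WT cells, and how they differed between each mutant and WT in the same population.

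Sp3 was between 3.38 and 7.79 FPKM in the 10 Sp3-/- samples and between 25.9 and 58.1 FPKM in the 10 WT samples, and limma called it lower in all 5 populations. Sp1 was at 14.8 to 40.5 FPKM in Sp1 ΔDBD/ΔDBD samples, in which a truncated transcript remains, and at 24.9 to 52.4 FPKM in WT samples. The summed level of the pluripotency markers Pou5f1, Nanog, Sox2 and Zfp42 was 995 FPKM or more in all ESC samples. In Flk1+ cells it was 31.4 and 40.2 FPKM in WT and 20.1 and 53.3 in Sp1 ΔDBD/ΔDBD cells. In Sp3-/- Flk1+ cells it was higher, at 94.4 and 96.8 FPKM. Mesoderm markers (Kdr, Pdgfra, T, Mesp1 and Etv2) summed in Flk1+ cells to 318 and 339 FPKM in WT and to 340 and 376 in Sp1 ΔDBD/ΔDBD cells. In Sp3-/- Flk1+ cells they summed to 544 and 594 FPKM. The part of these differences in the Flk1+ results was not tested. The deposited values were quantile normalised and hold no read counts, so the depth behind a value is unknown. In the tests, error was the spread between replicates of a gene pooled over all 15 groups, and not that of the compared samples alone.

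The constitutive proteasome was expressed at high and similar levels in all samples. The 31 constitutive subunits (14 of the 20S core and 17 of the 19S particle) had means over all samples between 62.8 FPKM for Psmd11 of the lid and 188 FPKM for Psmb7 of the core, whereas the median gene of the table was at 7.19 FPKM. Means ran from 69.8 FPKM (Psma3) to 181 FPKM (Psma2) for alpha subunits and from 86.2 FPKM (Psmb5) to 188 FPKM (Psmb7) for beta subunits. The base ranged from 63.5 FPKM (Psmc2) to 149 FPKM (Psmd2), and the lid from 62.8 FPKM (Psmd11) to 93.3 FPKM (Psmd7). The other classes were lower, apart from an overlap of the activators with the base and lid. Activators had means of 55.1 FPKM (Psme2) to 67.0 FPKM (Psme3), chaperones of 9.70 FPKM (Psmd9) to 45.1 FPKM (Psmg1), and the inhibitor Psmf1 was at 8.83 FPKM. Psme2b was at 0.406 FPKM, and reads of this copy and of Psme2 may not have been separated by the authors' counting. The mean levels of single constitutive subunits differed by a ratio of up to 3.77 in WT ESC, between Psma2 of the core and Psmd3 of the lid.

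Across the 30 samples the median SD of a constitutive subunit was 0.20 on the log2 scale, beside 0.35 for the 1184 genes with a mean between 50 and 250 FPKM. The variance of these subunits lay less between populations (median share 40.5%, beside 62.6% for the 1184 genes) and more between genotypes (25.6%, beside 11.5%). The subunits varied less in total, so a larger share need not mean a larger difference between genotypes. These shares are descriptions without a test. The largest shares between genotypes were those of Psmb5 (78.6%), Psmc6 (77.5%), Psmd3 (64.8%), Psmb7 (64.6%) and Psmb6 (63.2%), which include the 3 catalytic subunits of the constitutive core. The shares come from values without the correction for GC content and length that is used below. After that correction no mutant call of Psmc6 or Psmb7 stood, those of Psmb5 and Psmd3 stood in part, and those of Psmb6 all stood.

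In WT cells, the summed level of the constitutive subunits was high in ESC, lowest in Flk1+ cells and high again in HE2 and progenitors. The summed level of the 31 subunits was 4184 ± 3.90 FPKM (SD, n = 2) in ESC, 3460 ± 29.5 in Flk1+ cells, 3665 ± 130.2 in HE1, 4149.8 ± 141 in HE2 and 4268 ± 59.99 in progenitors (SD, n = 2 each). The sums of the mutants ran within a narrower range. The sum was 3649 ± 113 FPKM in Sp1 ΔDBD/ΔDBD ESC and 3671 ± 68.4 in Sp3-/- ESC, and it was 3482 ± 176 and 3407 ± 105 FPKM in the Flk1+ cells of these mutants (SD, n = 2 each). In ESC, HE1, HE2 and progenitors, both WT samples had a higher sum than all 4 mutant samples of that population, and in Flk1+ cells the genotypes overlapped. Progenitor sums in Sp1 ΔDBD/ΔDBD cells were far apart, at 4126 and 3576 FPKM. No test was made on this sum.

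**Figure D1:**
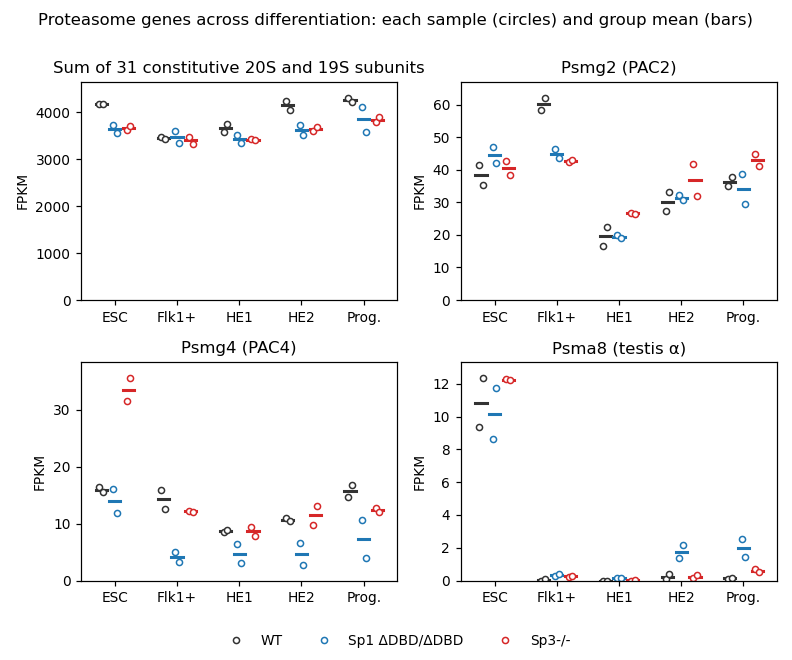
Summed FPKM of the 31 constitutive subunits and FPKM of Psmg2, Psmg4 and Psma8 (vertical axes) in the 5 populations (horizontal axis); circles are samples, bars are means of 2 replicates, with WT in black, Sp1 ΔDBD/ΔDBD in blue and Sp3-/- in red. The sum fell to about 3460 FPKM in WT Flk1+ cells, Psmg2 was highest there, and Psma8 was above 8 FPKM in ESC samples and below 3 FPKM in every other sample.

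From ESC to Flk1+ cells in WT, limma on log2(FPKM + 0.1) called 17 of the 49 members lower and 1 higher (adjusted p under 0.05 after Benjamini and Hochberg over all genes tested). Of all genes, 24.7% were called lower and 27.4% higher in this step. The members' median log2 difference was -0.25, beside 0.03 over all genes. Of the 31 constitutive subunits, 15 were called lower and none higher, with a median of -0.29. After a correction for the GC content and length of genes 10 of the 15 calls stood, and those of Psma4, Psmb4, Psmb7, Psmd7 and Psmd14 were lost. The core subunit Psmb3 and the base ATPases Psmc4 and Psmc5, which unfold the substrate, were among those with the largest falls. Psmc4 was at 143 and 160.4 FPKM in ESC and at 95.3 and 86.5 FPKM in Flk1+ cells. The samples did not overlap, and the log2 difference was -0.74 ± 0.10 (SE, limma adjusted p = 2.54e-06). Psmb3 went from 241 and 222 FPKM to 148 and 138 FPKM, a log2 difference of -0.69 ± 0.16 (limma adjusted p = 0.00144). The base scaffold Psmd1 fell by 0.69 ± 0.13 on the log2 scale (limma adjusted p = 0.00023).

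Psmg2 (PAC2), an assembly chaperone of the alpha ring, took the opposite course. It was at 41.6 and 35.5 FPKM in WT ESC, at 58.3 and 62.1 in Flk1+ cells, at 16.7 and 22.5 in HE1, at 27.5 and 33.1 in HE2 and at 35.0 and 37.7 in progenitors. Both Flk1+ samples were above, and both HE1 samples below, the other WT samples. The log2 difference was 0.64 ± 0.15 (limma adjusted p = 0.00141) from ESC to Flk1+ cells, -1.63 ± 0.15 (limma adjusted p = 4.8e-08) from Flk1+ cells to HE1 and 0.64 ± 0.15 (limma adjusted p = 0.00547) from HE1 to HE2. After the GC and length correction the last value was 0.34 (limma adjusted p = 0.106) and no longer called, while the first was 0.89. Its partner in the chaperone dimer, Psmg1, was not called in the step from Flk1+ cells to HE1.

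From Flk1+ cells to HE1, 9 members were called higher and 8 lower, beside 23.5% and 29.5% of all genes. Of the 8 constitutive subunits that rose, 7 belonged to the 19S particle, and the other was Psmb3. The GC and length correction ended 3 of these 8 calls, those of Psmc5, Psmd2 and Psmd3. Psmd8 of the lid rose by 0.63 ± 0.16 on the log2 scale (limma adjusted p = 0.00259), and the base ATPase Psmc3 rose from 110.3 and 97.3 FPKM to 154 and 156 FPKM, by 0.59 ± 0.09 (limma adjusted p = 3.42e-05). The base chaperone Psmd9, at 6.67 and 5.35 FPKM in Flk1+ cells, was at 9.69 and 9.41 FPKM in HE1, a log2 difference of 0.67 ± 0.22 (limma adjusted p = 0.0157). Of the 4 constitutive subunits that fell, the alpha subunits Psma1, Psma3 and Psma6 and the ATPase Psmc6, none was still called lower after the GC and length correction, under which Psma1 (0.093) and Psmc6 (0.26) changed sign. Markers of fibroblasts (Col1a1, Col1a2, Col3a1, Dcn, Lum and Postn, of which 4 were in the table) summed to 35.6 and 282 FPKM in WT HE1 and to 10.2 and 15.3 FPKM in WT Flk1+ cells, and their part in these differences was not tested.

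From HE1 to HE2, 6 members were called higher and none lower (14 and 1 at an unadjusted p under 0.05), beside 11.7% and 10.2% of all genes, and 1 call was left without HE1 WT replicate 1. They were Psma1, Psma5, the chaperones Psmd5 and Psmg2, Psmc3ip and Psma8. Here and below, each share of all genes counts calls at an adjusted p under 0.05. No such share was computed at the unadjusted threshold, so counts of members at that threshold have no background beside them. The GC and length correction ended the calls of Psma1, Psma5, Psma8 and Psmg2. Psmc3ip rose from 10.5 and 13.0 FPKM to 26.2 and 19.005 FPKM, by 0.93 ± 0.20 on the log2 scale (limma adjusted p = 0.00269). From HE2 to progenitors, Psme3 and Psmb9 were called higher and no member lower (4 and 0 at an unadjusted p under 0.05), beside 5.46% and 7.78% of all genes. Without progenitor WT replicate 1, neither was called. The Psmb9 call rests on values below 1 FPKM and was lost with a pseudocount of 1. Progenitors were also compared with the ESC they came from, and 9 members were called higher and 7 lower, beside 30.3% and 28.3% of all genes. The largest rise was that of Psmg3, an alpha-ring chaperone, from 17.2 and 13.3 FPKM to 29.2 and 24.2 FPKM, with a log2 difference of 0.81 ± 0.26 (limma adjusted p = 0.0111). Erythroid markers summed to between 4070 and 13162 FPKM in WT progenitors.

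Psma8 encodes an alpha subunit that replaces Psma7 in testis proteasomes, and it marked ESC. Its level was 9.37 and 12.3 FPKM in WT ESC, 8.63 and 11.7 in Sp1 ΔDBD/ΔDBD ESC and 12.3 and 12.2 in Sp3-/- ESC. In WT Flk1+ cells it was listed at 0 and at 0.0892 FPKM, in both WT HE1 samples it stood at the lowest value of the sample, in WT HE2 it was at 0.0656 and 0.407 FPKM, and in WT progenitors at 0.0948 and 0.171 FPKM. In Sp1 ΔDBD/ΔDBD cells it was at 0.281 and 0.375 FPKM in Flk1+ cells and 0.157 and 0.171 FPKM in HE1, and it was at the higher levels of 1.38 and 2.17 FPKM in HE2 and 2.52 and 1.44 FPKM in progenitors. In Sp3-/- cells it was at 0.225 and 0.304 FPKM in Flk1+ cells, at the lowest value of the sample in both HE1 samples, at 0.158 and 0.335 FPKM in HE2 and at 0.688 and 0.521 FPKM in progenitors. The 4 Sp1 mutant samples of HE2 and progenitors were above all WT and Sp3-/- samples of HE2 and progenitors. The log2 difference from WT was 2.66 ± 0.44 (limma adjusted p = 0.000678) in HE2 and 3.13 ± 0.44 (limma adjusted p = 0.000197) in progenitors, and both calls held when any one sample of the comparison was left out. With a pseudocount of 1 the differences were 1.16 and 1.37, still called. Psma8 was also called higher at values below 1 FPKM in Flk1+ cells of both mutants and in Sp3-/- progenitors, calls which were lost with a pseudocount of 1.

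Between mutant and WT cells, most changes of members were falls of less than 1 on the log2 scale. In Sp1 ΔDBD/ΔDBD cells, 5 members were called lower and none higher in ESC (12 and 0 at an unadjusted p under 0.05), beside 3.26% and 2.80% of all genes. In the later populations the calls were 2 lower and 1 higher in Flk1+ cells (2.62% and 2.92% of all genes), 5 lower and 1 higher in HE1 (4.35% and 5.69%), 7 lower and 2 higher in HE2 (4.97% and 4.70%) and 4 lower and 1 higher in progenitors (5.04% and 3.75%). The members called lower were thus 10.2%, 4.08%, 10.2%, 14.3% and 8.16% of the 49, a share closest to that of all genes in Flk1+ cells. The median log2 difference of the members was -0.22, -0.04, -0.12, -0.19 and -0.15, and that of all genes was at most 0.05 from 0. In Sp1 ΔDBD/ΔDBD ESC, 28 of the 31 constitutive subunits had a log2 difference below 0, although only 3 were called. Of all genes, 48.8% were above 0 in this comparison. The 31 values come from the same samples and are not independent.

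In Sp3-/- cells, 7 members were called lower and 2 higher in ESC (5.91% and 5.40% of all genes), 4 lower and 5 higher in Flk1+ cells (5.94% and 6.69%), 4 lower and none higher in HE1 (4.87% and 6.02%), 7 lower and none higher in HE2 (6.84% and 6.97%) and 6 lower and 1 higher in progenitors (4.77% and 3.88%). The members called lower were 14.3%, 8.16%, 8.16%, 14.3% and 12.2% of the 49, and those called higher in Flk1+ cells 10.2%. At an unadjusted p under 0.05, 4 members were higher in HE1 and 1 in HE2. The members' median log2 difference was -0.14, 0.05, -0.06, -0.11 and -0.11. The WT samples of a population served as controls for both mutants. Same-numbered samples of successive populations deviated from their group means with correlations of -0.081 to 0.649, so calls in several populations need not be independent. In all, 26 of the 49 members were called in at least 1 of these 10 comparisons and 23 in none. Psmd12 was called in 7, Psmc6 in 6, and Psma8, Psmb3, Psmb6 and Psmd3 in 5 each. All 28 calls in Sp1 ΔDBD/ΔDBD cells and all 36 calls in Sp3-/- cells kept their direction when a sample of the comparison was left out. The direction cannot change in this way where the samples of the compared groups do not overlap, so this says nothing about the calls. With 2 replicates, however, only 2 of the 28 (Psma8 in HE2 and progenitors) and 2 of the 36 (Psmb7 and Psmc6 in ESC) also stayed below an adjusted p of 0.05 whichever of their own samples was left out.

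**Figure D2:**
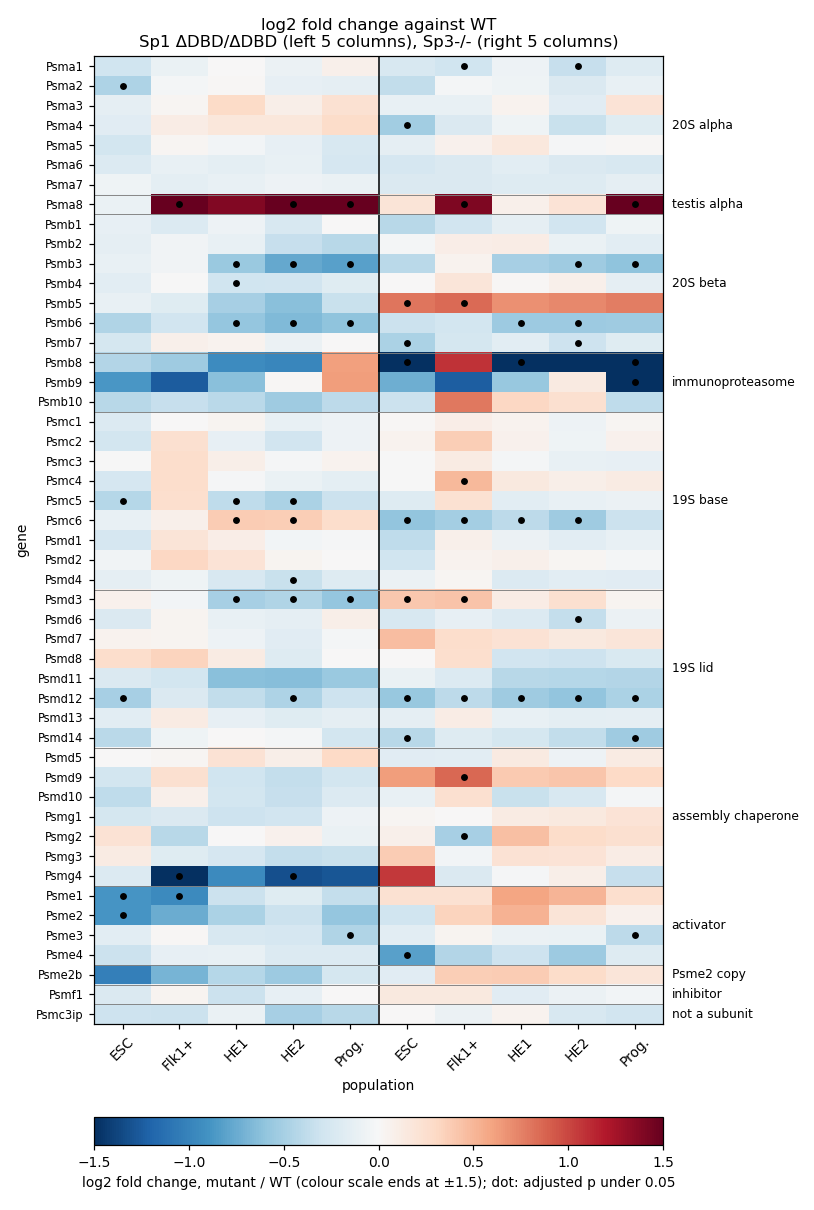
Log2 difference from WT of each of the 49 members (rows, by class) in each population of Sp1 ΔDBD/ΔDBD and Sp3-/- cells (columns), with a colour scale that ends at -1.5 and 1.5; a dot marks a limma adjusted p under 0.05. Psmd12 and Psmb3 were lower in both mutants in most columns, while Psmb5, Psmc6 and Psmd3 had opposite signs in the Sp1 and Sp3 mutants in several.

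The promoters of members whose levels changed in the mutants are shown because Sp1 and Sp3 bind the GC box. Promoters came from RefSeq (GRCm38.p6), which matched 41 of the 49 members by symbol with 44 promoters. The 250 bases before the start site are given from 5′ to 3′ on the strand of the gene. Capitals mark the GC box GGGCGG on either strand (CCGCCC when it lies on the other strand) and the CCAAT box on either strand (ATTGG on the other strand). The core subunits Psmb5 (chr14:54617996-54618245, minus strand), Psmb6 (chr11:70525107-70525356, plus strand) and Psmb3 (chr11:97703184-97703433, plus strand) come first, then Psmc6 of the base (chr14:45329574-45329823, plus strand), Psmd12 of the lid (chr11:107479278-107479527, plus strand), the chaperone Psmg4 (chr13:34162714-34162963, plus strand) and the activator subunit Psme1 (chr14:55578244-55578493, plus strand).
Psmb5: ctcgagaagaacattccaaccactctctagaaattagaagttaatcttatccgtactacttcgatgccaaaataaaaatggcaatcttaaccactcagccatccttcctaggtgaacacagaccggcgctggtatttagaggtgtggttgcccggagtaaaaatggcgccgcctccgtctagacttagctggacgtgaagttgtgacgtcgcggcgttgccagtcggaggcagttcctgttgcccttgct
Psmb6: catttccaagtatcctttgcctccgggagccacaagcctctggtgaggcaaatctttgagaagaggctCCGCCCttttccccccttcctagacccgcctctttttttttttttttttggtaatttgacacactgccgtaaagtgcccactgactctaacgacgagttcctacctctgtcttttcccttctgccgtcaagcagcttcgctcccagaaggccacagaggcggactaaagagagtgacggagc
Psmb3: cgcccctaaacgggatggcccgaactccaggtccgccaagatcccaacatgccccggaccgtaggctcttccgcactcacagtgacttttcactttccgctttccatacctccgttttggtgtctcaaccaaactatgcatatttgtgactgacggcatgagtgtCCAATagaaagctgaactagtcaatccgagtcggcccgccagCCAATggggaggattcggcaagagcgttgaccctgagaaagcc
Psmc6: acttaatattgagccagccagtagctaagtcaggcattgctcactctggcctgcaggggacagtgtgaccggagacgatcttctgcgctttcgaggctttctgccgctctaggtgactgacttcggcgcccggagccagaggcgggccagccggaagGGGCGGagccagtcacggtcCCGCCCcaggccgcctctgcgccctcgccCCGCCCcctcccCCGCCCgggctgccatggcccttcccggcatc
Psmd12: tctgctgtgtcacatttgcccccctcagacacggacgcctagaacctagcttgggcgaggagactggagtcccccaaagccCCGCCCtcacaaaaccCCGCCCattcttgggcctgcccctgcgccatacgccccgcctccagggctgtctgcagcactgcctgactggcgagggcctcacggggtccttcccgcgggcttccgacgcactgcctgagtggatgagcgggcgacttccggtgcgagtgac
Psmg4: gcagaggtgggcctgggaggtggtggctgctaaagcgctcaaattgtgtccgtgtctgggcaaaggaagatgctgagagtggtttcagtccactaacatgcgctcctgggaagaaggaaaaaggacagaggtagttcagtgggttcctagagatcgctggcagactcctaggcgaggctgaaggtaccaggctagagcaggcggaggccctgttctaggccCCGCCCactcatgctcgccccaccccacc
Psme1: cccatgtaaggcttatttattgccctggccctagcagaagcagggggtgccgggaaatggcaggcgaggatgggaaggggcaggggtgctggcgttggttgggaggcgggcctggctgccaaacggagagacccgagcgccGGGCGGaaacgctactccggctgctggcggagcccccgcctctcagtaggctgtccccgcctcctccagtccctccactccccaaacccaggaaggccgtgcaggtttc

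In these windows Psmc6 had 4 GC boxes, Psmd12 had 2, Psmb6, Psmg4 and Psme1 had 1 each, and Psmb5 and Psmb3 had none. Psmb3 had 2 CCAAT boxes. Of the 44 member promoters, 23 (52.3%) held GGGCGG, beside 32.7% of all 32851 promoters of the same length. These 32851 were not limited to genes expressed in these cells or to promoters of like GC content. CCAAT was in 14 of the 44 (31.8%, beside 33.8% of all promoters). The antioxidant response element TGACNNNGC, which the proteasome gene regulators Nfe2l1 and Nfe2l2 are known to bind, was in 5 (11.4%, beside 10.2%), and the interferon response motif (GAAA, any 2 bases, GAAA) was in 3 (6.82%, beside 2.98%). All motifs were searched on both strands and none was tested, and a match is a description of the letters only. No promoter was matched for Psmb7, Psmd3, Psma8, Psmg2, Psmb1, Psmb2, Psmc3 and Psmd7.

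The 3 catalytic subunits of the constitutive core differed in how they responded. Psmb5, which carries the chymotrypsin-like site, was higher in Sp3-/- cells, Psmb6 with the caspase-like site was lower in both mutants, and Psmb7 with the trypsin-like site was lower in Sp3-/- cells. Psmb5 was at 88.9 and 70.8 FPKM in WT ESC, at 86.8 and 61.9 in Sp1 ΔDBD/ΔDBD ESC and at 131 and 147 in Sp3-/- ESC. In Flk1+ cells it was at 68.7 and 61.4 FPKM in WT, 75.1 and 43.7 in the Sp1 mutant and 120.5 and 115 in the Sp3 mutant. In HE1 the values were 61.5 and 77.6 FPKM in WT, 59.3 and 40.2 in the Sp1 mutant and 109.8 and 113 in the Sp3 mutant. In HE2 Psmb5 was at 80.2 and 82.4, 63.9 and 43.3, and 127 and 141 FPKM, and in progenitors at 67.9 and 79.1, 72.5 and 46.8, and 122 and 127.5 FPKM. Over all populations the 10 Sp3-/- samples lay between 109.8 and 147 FPKM, above the 10 WT samples (61.4 to 88.9 FPKM) and the 10 Sp1 ΔDBD/ΔDBD samples (40.2 to 86.8 FPKM), and the groups did not overlap. Psmb5 rose in Sp3-/- cells by a log2 difference of 0.81 ± 0.25 in ESC (limma adjusted p = 0.0438) and 0.85 ± 0.25 in Flk1+ cells (limma adjusted p = 0.0311). The differences of 0.69 in HE1, 0.72 in HE2 and 0.77 in progenitors did not pass the test (limma adjusted p = 0.083, 0.062 and 0.064). After the GC and length correction it was the ESC difference that was not called (0.42, limma adjusted p = 0.065), while HE1 (0.53, limma adjusted p = 0.012), HE2 (0.52, 0.016) and progenitors (0.70, 0.0026) were. Replicate 2 of the Sp1 mutant was below replicate 1 in all 5 populations. The same was true of Psmb3, Psmb6, Psmg4 and Psme1, whereas for Psmd2 replicate 2 was above replicate 1 in all 5.

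Psmb6 was at 199 and 199 FPKM in WT HE1, at 154 and 114 in Sp1 ΔDBD/ΔDBD HE1 and at 139 and 134 in Sp3-/- HE1. In HE2 it was at 250.3 and 233 FPKM in WT, 175 and 132 in the Sp1 mutant and 158 and 172 in the Sp3 mutant, and in progenitors at 238 and 231, 181 and 131, and 159.5 and 165 FPKM. Both WT samples were above all mutant samples in each of these populations, and in ESC (244 and 204 FPKM in WT, 192 and 139 in the Sp1 mutant, 177 and 180.5 in the Sp3 mutant) and Flk1+ cells (192 and 190.0, 170.2 and 145, 157 and 158 FPKM) as well. The fall in the Sp1 mutant was called in HE1 (-0.58 ± 0.17, limma adjusted p = 0.0357), HE2 (-0.67 ± 0.17, limma adjusted p = 0.0176) and progenitors (-0.61 ± 0.17, limma adjusted p = 0.0308). In the Sp3 mutant it was called in HE1 (-0.54 ± 0.17, limma adjusted p = 0.0463) and HE2 (-0.55 ± 0.17, limma adjusted p = 0.0376), and the value in progenitors was -0.53 (limma adjusted p = 0.059). All 5 calls stood after the GC and length correction. The Sp1 differences rest in part on replicate 2 of the Sp1 mutant, without which they were -0.37 in HE1, -0.46 in HE2 and -0.38 in progenitors.

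Psmb7 was at 216 and 238 FPKM in WT ESC, 183 and 194 in Sp1 ΔDBD/ΔDBD ESC and 159.5 and 167 in Sp3-/- ESC. In HE2 it was at 207 and 199.998 FPKM in WT, 185 and 199 in the Sp1 mutant and 160.0 and 167 in the Sp3 mutant. The Sp3-/- samples were below both WT samples in all 5 populations, and the Sp1 mutant samples were below WT in ESC and HE2, above it in Flk1+ cells and overlapped it elsewhere. In Flk1+ cells the values were 197 and 184 FPKM in WT, 203 and 199 in the Sp1 mutant and 161 and 155 in the Sp3 mutant. In HE1 they were 177 and 192, 183 and 201, and 169 and 162 FPKM, and in progenitors 208 and 203, 219.7 and 195, and 174 and 189.5 FPKM. The Sp3 difference was called in ESC (-0.47 ± 0.09, limma adjusted p = 0.00232) and HE2 (-0.31 ± 0.09, limma adjusted p = 0.0258). After the GC and length correction these values were -0.21 and -0.09 and were not called (limma adjusted p = 0.25 and 0.6).

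**Figure D3:**
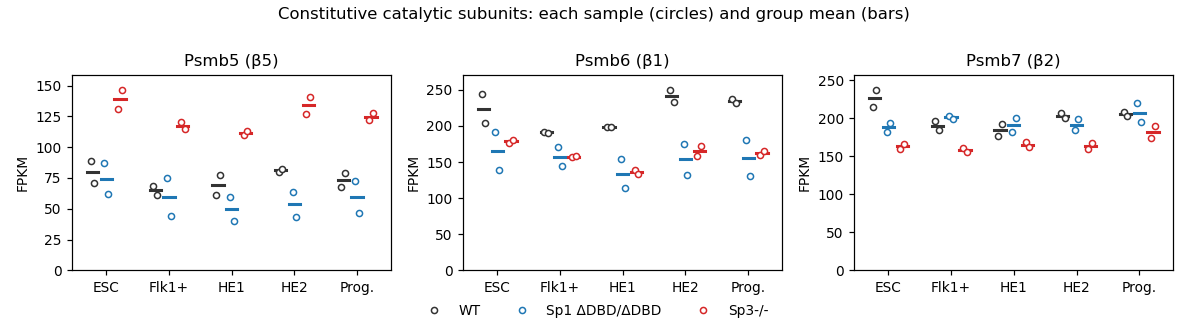
FPKM of the catalytic core subunits Psmb5, Psmb6 and Psmb7 (vertical axes) in the 5 populations; circles are samples and bars are means of 2 replicates, with WT in black, Sp1 ΔDBD/ΔDBD in blue and Sp3-/- in red. All Psmb5 values of Sp3-/- cells lay at 109.8 FPKM or above and those of the other genotypes at 88.9 FPKM or below, whereas Psmb6 was highest in WT in each population.

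Of the other core subunits, Psmb3 (beta3, structural) changed most often. It was at 239 and 252 FPKM in WT HE2, 167 and 125 in the Sp1 mutant and 169.7 and 168 in the Sp3 mutant. In progenitors the values were 251 and 265 FPKM in WT, 173 and 124 in the Sp1 mutant and 155 and 187 in the Sp3 mutant. WT was above both mutants in both populations and in HE1 (167 and 212 FPKM in WT, 144 and 114 in the Sp1 mutant, 137 and 131 in the Sp3 mutant). In Flk1+ cells the genotypes overlapped, at 148 and 138, 152 and 126, and 151 and 146 FPKM. In ESC the WT values were 241 and 222, the Sp1 mutant values 226 and 204 and the Sp3 mutant values 174 and 174 FPKM. Psmb3 fell in the Sp1 mutant by 0.56 ± 0.16 on the log2 scale in HE1 (limma adjusted p = 0.0351), 0.76 ± 0.16 in HE2 (limma adjusted p = 0.00544) and 0.82 ± 0.16 in progenitors (limma adjusted p = 0.00348). In the Sp3 mutant it fell by 0.54 in HE2 (limma adjusted p = 0.0341) and 0.60 ± 0.16 in progenitors (limma adjusted p = 0.0268). All 5 calls stood after the GC and length correction. Without replicate 2 of the Sp1 mutant, the lower one, the Sp1 differences of Psmb3 were -0.56 in HE2 and -0.58 in progenitors. Among alpha subunits, which form the outer ring and the gate, Psma2 fell by 0.46 ± 0.12 in Sp1 ΔDBD/ΔDBD ESC (limma adjusted p = 0.0278) and Psma4 by 0.52 ± 0.13 in Sp3-/- ESC (limma adjusted p = 0.0116). Psma1 was lower in Sp3-/- Flk1+ cells and HE2 by 0.30 and 0.34, both calls lost after the GC and length correction, as was that of Psma2. Psmb4 was lower in Sp1 ΔDBD/ΔDBD HE1 by 0.30 (limma adjusted p = 0.0419), likewise lost. No call was made in either mutant for Psma3, Psma5, Psma6, Psma7, Psmb1 and Psmb2.

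In the 19S base, the ATPase Psmc6 moved in opposite directions in the mutants. It was at 133 and 139 FPKM in WT ESC, 119 and 132 in Sp1 ΔDBD/ΔDBD ESC and 89.2 and 91.5 in Sp3-/- ESC. In Flk1+ cells the values were 133 and 142 FPKM in WT, 139 and 149.6 in the Sp1 mutant and 94.3 and 97.6 in the Sp3 mutant. In HE1 they were 96.5 and 109, 127 and 140.1, and 76.2 and 80.1 FPKM, and in HE2 120.0 and 108, 135 and 159.5, and 82.7 and 74.7 FPKM. The Sp3-/- samples were the lowest and, in HE1 and HE2, the Sp1 ΔDBD/ΔDBD samples the highest, without overlap. In progenitors the values were 129.7 and 118 in WT, 158 and 139.7 in the Sp1 mutant and 104 and 93.4 in the Sp3 mutant. Psmc6 fell in Sp3-/- ESC (-0.59 ± 0.11, limma adjusted p = 0.00167), Flk1+ cells (-0.52 ± 0.11, limma adjusted p = 0.00425), HE1 (-0.39, limma adjusted p = 0.0234) and HE2 (-0.54, limma adjusted p = 0.00336). It rose in Sp1 ΔDBD/ΔDBD HE1 (0.38 ± 0.11, limma adjusted p = 0.0296) and HE2 (0.36, limma adjusted p = 0.0368). After the GC and length correction none of the 6 calls stood, with Sp3 values of -0.13 to -0.29 and Sp1 values of 0.12 and 0.15. The promoter of Psmc6, shown above, had the most GC boxes of the 7 printed (4). That of Psma7, which is not printed and was called in neither mutant, had 5. A link between GC boxes and these differences was not tested.

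Psmc5, another ATPase of the base, fell in the Sp1 mutant in ESC (129 and 159.5 FPKM in WT, 104 and 109.8 in the mutant), HE1 (125 and 100.4 in WT, 86.5 and 85.8 in the mutant) and HE2 (135 and 120.3 in WT, 87.6 and 95.6 in the mutant). Both mutant samples were below both WT samples in each. The log2 differences were -0.42 ± 0.11 (limma adjusted p = 0.0305), -0.38 (limma adjusted p = 0.0403) and -0.48 (limma adjusted p = 0.011), and none was called after the GC and length correction. In Flk1+ cells, by contrast, the mutant samples (99.3 and 105 FPKM) were above WT (90.9 and 81.6 FPKM), without a call. Psmc4 rose in Sp3-/- Flk1+ cells, from 95.3 and 86.5 to 131 and 123 FPKM, by 0.48 ± 0.10 (limma adjusted p = 0.00312). The ubiquitin receptor Psmd4 was lower by 0.33 in Sp1 ΔDBD/ΔDBD HE2 (limma adjusted p = 0.02), a call lost after the correction. No call was made in either mutant for Psmc1, Psmc2, Psmc3, Psmd1 and Psmd2.

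In the lid, Psmd12 (Rpn5), a structural subunit, was lower in both mutants, and it was the member with the most calls. It was at 121 and 135 FPKM in WT ESC, 87.1 and 94.7 in Sp1 ΔDBD/ΔDBD ESC and 84.2 and 88.5 in Sp3-/- ESC. In HE2 it was at 117 and 89.0 FPKM in WT, 73.4 and 74.8 in the Sp1 mutant and 68.3 and 67.4 in the Sp3 mutant. All 20 mutant samples were below both WT samples of their population. In Flk1+ cells the values were 108 and 102 in WT, 87.5 and 93.4 in the Sp1 mutant and 80.4 and 78.7 in the Sp3 mutant, and in HE1 91.9 and 88.2, 72.4 and 67.5, and 64.8 and 59.8 FPKM. In progenitors they were 111 and 95.3, 91.1 and 75.2, and 80.1 and 68.6 FPKM. The Sp3 difference was called in all 5 populations (-0.57 ± 0.12 in ESC, -0.40 in Flk1+ cells, -0.53 ± 0.12 in HE1, -0.59 ± 0.12 in HE2 and -0.47 in progenitors, with limma adjusted p = 0.00569, 0.0386, 0.00959, 0.00425 and 0.0217). The Sp1 difference was called in ESC (-0.49 ± 0.12, limma adjusted p = 0.0201) and HE2 (-0.46, limma adjusted p = 0.0208). All 7 calls stood after the GC and length correction.

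Psmd3 (Rpn3), also a structural lid subunit, was called lower in the Sp1 mutant and higher in the Sp3 mutant, but in different populations. In progenitors it was at 89.5 and 78.8 FPKM in WT, 49.8 and 63.5 in the Sp1 mutant and 83.4 and 88.8 in the Sp3 mutant. In HE2 it was at 71.8 and 76.9 FPKM in WT, 50.6 and 58.0 in the Sp1 mutant and 92.1 and 84.4 in the Sp3 mutant. In HE1 it was at 80.1 and 64.0, 54.0 and 47.4, and 76.9 and 77.8 FPKM. In these 3 populations the Sp1 mutant samples were below all others, and in HE1 and progenitors the Sp3 mutant samples overlapped WT. In ESC the values were 63.4 and 60.5 in WT, 69.9 and 59.5 in the Sp1 mutant and 81.2 and 82.8 in the Sp3 mutant, and in Flk1+ cells 57.5 and 56.5, 53.8 and 57.0, and 82.0 and 71.7 FPKM. Here the Sp3 mutant samples were above all others. Psmd3 fell in Sp1 ΔDBD/ΔDBD HE1 (-0.50 ± 0.13, limma adjusted p = 0.0184), HE2 (-0.46, limma adjusted p = 0.0288) and progenitors (-0.58 ± 0.13, limma adjusted p = 0.00765). It rose in Sp3-/- ESC (0.40 ± 0.13, limma adjusted p = 0.0474) and Flk1+ cells (0.43, limma adjusted p = 0.034). The GC and length correction ended the calls in progenitors (-0.36, limma adjusted p = 0.0508) and both Sp3 calls (0.26 each).

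Psmd14 (Rpn11), which cuts the ubiquitin chain from the substrate, was at 132 and 102 FPKM in WT progenitors and at 79.8 and 80.4 in Sp3-/- progenitors, without overlap. The log2 difference was -0.53 ± 0.12 (limma adjusted p = 0.012). In Sp3-/- ESC (81.9 and 83.6 FPKM, 101 and 122 in WT) it was lower by 0.42 (limma adjusted p = 0.0348), a call lost after the GC and length correction, as was that of Psmd6 in Sp3-/- HE2 (-0.35, limma adjusted p = 0.0386). Psmd11 was below 0 in all 10 mutant comparisons (-0.64 to -0.10) but was never called. Its WT replicates were far apart in progenitors, at 115 and 64.0 FPKM. Psmd7, Psmd8 and Psmd13 were not called in either mutant.

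**Figure D4:**
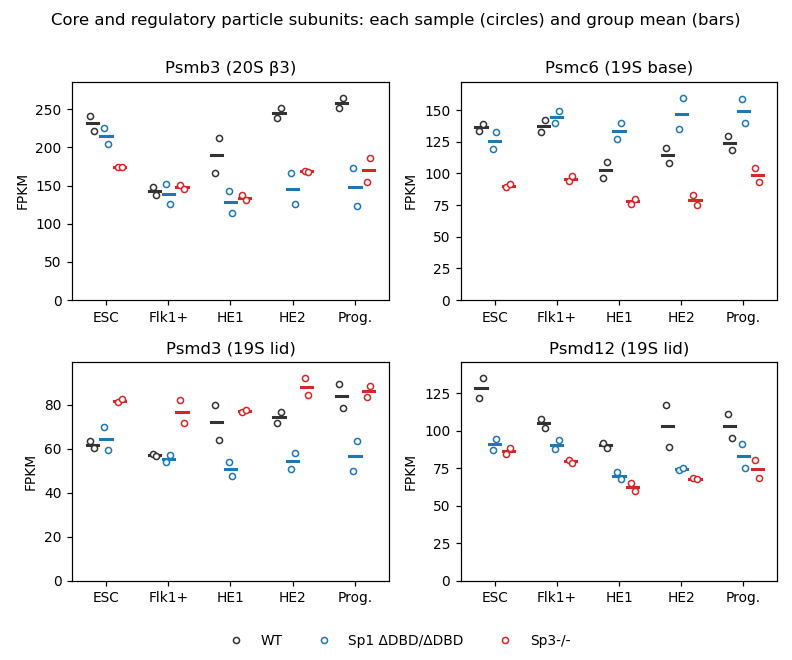
FPKM of Psmb3 (core), Psmc6 (base), Psmd3 and Psmd12 (lid) in the 5 populations (vertical axes, FPKM); circles are samples and bars are means of 2 replicates, with WT in black, Sp1 ΔDBD/ΔDBD in blue and Sp3-/- in red. Psmd12 was below WT in all mutant samples, Psmc6 was lowest in Sp3-/- cells, and Psmd3 was lowest in the Sp1 mutant in HE1, HE2 and progenitors.

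Among the assembly chaperones, Psmg4 (PAC4), which with Psmg3 helps to build the alpha ring, had the largest fall in Sp1 ΔDBD/ΔDBD cells of any member above 3 FPKM. It was at 16.4 and 15.6 FPKM in WT ESC, 16.1 and 11.9 in Sp1 ΔDBD/ΔDBD ESC and 31.5 and 35.5 in Sp3-/- ESC. In Flk1+ cells it was at 15.9 and 12.6 FPKM in WT, 5.08 and 3.22 in the Sp1 mutant and 12.2 and 12.1 in the Sp3 mutant. In HE2 it was at 10.9 and 10.5, 6.62 and 2.69, and 9.82 and 13.1 FPKM. The Sp1 mutant samples were the lowest in both. In HE1 the values were 8.47 and 8.90 in WT, 6.43 and 3.04 in the Sp1 mutant and 9.50 and 7.80 in the Sp3 mutant, and in progenitors 14.7 and 16.9, 10.6 and 3.88, and 12.7 and 12.0 FPKM. The fall in the Sp1 mutant was called in Flk1+ cells (-1.78 ± 0.40, limma adjusted p = 0.0114) and HE2 (-1.32 ± 0.40, limma adjusted p = 0.0436). In HE1 the value was -0.96 (limma adjusted p = 0.14) and in progenitors -1.28 (limma adjusted p = 0.053). Without replicate 2 of the Sp1 mutant, the lower one, the differences were -1.46 in Flk1+ cells and -0.68 in HE2. The Sp3-/- ESC samples were above WT by 1.06 on the log2 scale, which did not pass the test (limma adjusted p = 0.098).

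Psmd9, a chaperone of the base, was at 6.67 and 5.35 FPKM in WT Flk1+ cells and at 11.6 and 10.3 FPKM in Sp3-/- Flk1+ cells. The samples did not overlap, and the log2 difference was 0.86 ± 0.22 (limma adjusted p = 0.0148). The Sp3-/- samples were also above WT in ESC (10.3 and 10.9 FPKM, 7.01 and 6.69 in WT), HE1 (13.0 and 12.1 FPKM, 9.69 and 9.41 in WT), HE2 (13.0 and 16.4 FPKM, 10.3 and 11.6 in WT) and progenitors (14.3 and 13.1 FPKM, 10.6 and 11.6 in WT), without a call. Psmg2 was at 42.4 and 43.0 FPKM in Sp3-/- Flk1+ cells, below both WT samples, with a log2 difference of -0.49 (limma adjusted p = 0.0385). Psmd5, Psmd10, Psmg1 and Psmg3 were not called in either mutant.

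Of the immunoproteasome subunits, Psmb8 and Psmb9 were at low levels, and Psmb10 was not. Psmb8, the counterpart of Psmb5, was at 4.70 and 1.80 FPKM in WT ESC, 2.39 and 1.89 in Sp1 ΔDBD/ΔDBD ESC and 0.534 and 0.681 in Sp3-/- ESC. In Flk1+ cells it was at 1.96 and 3.07 FPKM in WT, 2.97 and 0.922 in the Sp1 mutant and 6.38 and 4.44 in the Sp3 mutant. The Sp3 mutant was thus the lowest genotype in ESC and the highest in Flk1+ cells. In HE1 Psmb8 was at 0.801 and 0.818 FPKM in WT, 0.404 and 0.342 in the Sp1 mutant and 0.292 and the lowest value of the sample in the Sp3 mutant. In HE2 it was at 0.3198 and 0.154 FPKM in WT, 0.167 and the lowest value of the sample in the Sp1 mutant and the lowest value in both samples of the Sp3 mutant, and in progenitors WT was at 0.347 and 1.26 FPKM, the Sp1 mutant at 1.61 and 0.739 and both Sp3-/- samples at their lowest value. The fall in Sp3-/- ESC was called (-2.10 ± 0.65, limma adjusted p = 0.0442, and -1.31 with a pseudocount of 1). The calls in Sp3-/- HE1 and progenitors rest on values of at most 1.26 FPKM and were lost with a pseudocount of 1.

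Psmb9, the counterpart of Psmb6, was at 2.29 and 0.821 FPKM in WT ESC, 1.11 and 0.443 in Sp1 ΔDBD/ΔDBD ESC and 0.545 and 1.13 in Sp3-/- ESC. In Flk1+ cells it was at 1.31 and 1.11, 0.388 and 0.519, and 0.791 and 0.246 FPKM. It stood at the lowest value of the sample in all 6 HE2 samples and in 5 of the 6 HE1 samples. In progenitors it was at 0.375 and 0.299 FPKM in WT, 0.428 and 0.749 in the Sp1 mutant and at the lowest value of the sample in the Sp3 mutant. The fall in Sp3-/- progenitors was called (-1.93, limma adjusted p = 0.0257) but was lost with a pseudocount of 1. Psmb9 was listed at a sample's lowest value in 13 of the 30 samples, Psmb8 in 6 and Psma8 in 5. Between 398 and 1660 genes shared that value in a sample.

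Psmb10, the counterpart of Psmb7, was expressed throughout. It was at 21.4 and 18.0 FPKM in WT ESC, 10.8 and 12.0 in Flk1+ cells, 9.83 and 10.8 FPKM in HE1, 21.7 and 14.96 FPKM in HE2 and 33.2 and 29.8 FPKM in progenitors, where both samples were the highest of WT. None of these steps was called. As a share of the summed FPKM of Psmb10 and Psmb7, Psmb10 made up 9.04% and 7.02% in WT ESC, 5.21% and 6.12% in WT Flk1+ cells and 13.8% and 12.8% in WT progenitors. In Sp3-/- cells Psmb10 was at 16.2 and 15.1 FPKM in ESC, 23.5 and 16.8 in Flk1+ cells, 12.0 and 13.6 FPKM in HE1, 20.7 and 21.8 FPKM in HE2 and 23.7 and 24.5 in progenitors. The Flk1+ difference of 0.80 had an adjusted p of 0.16 in limma. In Sp1 ΔDBD/ΔDBD cells it was at 16.6 and 13.1, 10.8 and 7.42, 12.3 and 4.89, 18.7 and 8.23, and 30.5 and 18.8 FPKM, with differences of -0.53 to -0.35 and no call.

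The activator PA28 is a ring of Psme1 and Psme2, which are known to be induced together with the immunoproteasome. In ESC, Psme1 was at 59.9 and 36.8 FPKM in WT, 31.4 and 20.4 in Sp1 ΔDBD/ΔDBD cells and 54.4 and 56.0 in Sp3-/- cells. Psme2 was at 62.9 and 44.5, 30.9 and 26.5, and 42.9 and 43.5 FPKM. Both genes were lowest in the Sp1 mutant, without overlap. The log2 difference was -0.89 ± 0.26 for Psme1 (limma adjusted p = 0.0442) and -0.88 ± 0.22 for Psme2 (limma adjusted p = 0.0207). These values rest in part on ESC WT replicate 1, the higher one, without which they were -0.54 and -0.63. In Flk1+ cells Psme1 was at 66.6 and 69.7 FPKM in WT, 42.0 and 29.5 in the Sp1 mutant and 89.1 and 71.4 in the Sp3 mutant, with a Sp1 difference of -0.95 ± 0.26 (limma adjusted p = 0.0324). For Psme2 the values were 66.5 and 71.4, 48.9 and 34.8, and 106 and 71.3 FPKM, and the Sp1 difference of -0.74 had an adjusted p of 0.055 in limma. The 3 calls stood after the GC and length correction. Fibroblast markers summed to 10.6 and 13.7 FPKM in Sp1 ΔDBD/ΔDBD ESC and to 2.55 and 3.07 FPKM in WT ESC, and in Flk1+ cells to between 2.17 and 2.87 FPKM in the mutant and between 10.2 and 15.3 FPKM in WT. Their part in either difference was not tested.

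In the later populations the PA28 genes were not called in either mutant. Psme1 was at 50.6 and 45.9 FPKM in WT HE1, 47.9 and 31.1 in the Sp1 mutant and 69.0 and 76.3 in the Sp3 mutant, at 56.6 and 63.4, 66.1 and 42.0, and 87.4 and 83.1 FPKM in HE2, and at 68.3 and 88.2, 64.8 and 56.2, and 95.6 and 89.3 FPKM in progenitors. The Sp3-/- samples were above WT in all 3, with log2 differences of 0.59, 0.51 and 0.25. Psme2 was at 57.3 and 46.3 FPKM in WT HE1, 41.9 and 32.8 in the Sp1 mutant and 62.9 and 86.5 in the Sp3 mutant, at 58.4 and 53.3, 52.1 and 38.0, and 62.9 and 64.4 FPKM in HE2, and at 68.4 and 59.3, 45.4 and 39.7, and 72.2 and 61.2 FPKM in progenitors. In the Sp1 mutant Psme2 was below both WT samples in all 5 populations.

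Psme3 (PA28 gamma, the nuclear form) rose from WT HE2 (67.5 and 68.9 FPKM) to WT progenitors (114 and 86.2 FPKM), by 0.54 ± 0.11 on the log2 scale (limma adjusted p = 0.00274). Progenitors of both mutants did not reach this level, with 71.6 and 73.3 FPKM in the Sp1 mutant and 75.9 and 74.9 FPKM in the Sp3 mutant. The samples did not overlap with WT, and the differences were -0.45 ± 0.11 (limma adjusted p = 0.0165) and -0.40 (limma adjusted p = 0.0347). These values rest in part on progenitor WT replicate 1, at 114 FPKM, without which the mutant differences were -0.25 and -0.19 (limma adjusted p = 0.244 and 0.385) and the rise from WT HE2 was 0.34 (limma adjusted p = 0.0826). In the other populations no mutant call was made. Psme3 was at 72.1 and 82.6 FPKM in WT ESC, 65.3 and 73.3 in Sp1 ΔDBD/ΔDBD ESC and 68.7 and 69.2 in Sp3-/- ESC. In Flk1+ cells it was at 68.8 and 60.5, 65.3 and 65.5, and 68.4 and 64.8 FPKM. In HE1 it was at 59.2 and 53.0 FPKM in WT, 48.4 and 46.2 in the Sp1 mutant and 52.9 and 52.3 in the Sp3 mutant, and in HE2 the Sp1 mutant was at 60.4 and 54.2 and the Sp3 mutant at 66.0 and 61.7 FPKM. Both mutants were below WT in HE1 and HE2, and the genotypes overlapped in Flk1+ cells. Erythroid markers in progenitors summed to 4070 and 13162 FPKM in WT, 7006 and 9406 in the Sp1 mutant and 1473 and 3232 in the Sp3 mutant, and their part was not tested.

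Psme4 (PA200), an activator with known roles in DNA repair and spermatogenesis, fell along WT differentiation. It was at 101 and 93.4 FPKM in ESC, 73.8 and 74.8 in Flk1+ cells, 51.9 and 48.8 FPKM in HE1, 62.2 and 54.0 FPKM in HE2 and 57.7 and 55.8 FPKM in progenitors. The fall of 0.56 ± 0.20 on the log2 scale from Flk1+ cells to HE1 was called (limma adjusted p = 0.021), as was that of 0.78 ± 0.20 from ESC to progenitors (limma adjusted p = 0.00206). In Sp3-/- ESC Psme4 was at 54.2 and 56.3 FPKM, close to the level of WT progenitors, and the difference from WT ESC was -0.82 ± 0.20 (limma adjusted p = 0.0109, and -0.55 after the GC and length correction, adjusted p = 0.012). In the Sp1 mutant ESC were at 69.4 and 87.1 FPKM, below both WT samples but without a call. In Flk1+ cells the Sp1 mutant was at 61.5 and 75.9 FPKM and the Sp3 mutant at 54.8 and 54.7 FPKM. In HE1 the Sp1 mutant was at 38.4 and 56.97 and the Sp3 mutant at 39.7 and 41.3 FPKM, in HE2 at 38.95 and 65.3 and at 40.7 and 38.8 FPKM, and in progenitors at 44.2 and 54.96 and at 53.2 and 46.6 FPKM. The Sp3-/- samples were below both WT samples in all 5 populations, with a call in ESC.

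The inhibitor Psmf1 (PI31), which binds the 20S core, gave no call. It was at 8.22 and 10.7 FPKM in WT ESC, 7.22 and 7.06 in Flk1+ cells, 7.53 and 8.75 FPKM in HE1, 8.84 and 9.66 FPKM in HE2 and 11.2 and 11.4 FPKM in progenitors. In Sp1 ΔDBD/ΔDBD cells it was at 6.51 and 9.89 FPKM in ESC, 7.72 and 7.04 in Flk1+ cells, 6.46 and 6.51 FPKM in HE1, 7.74 and 9.34 FPKM in HE2 and 10.8 and 11.9 FPKM in progenitors. In Sp3-/- cells the values were 10.6 and 10.2 in ESC, 8.68 and 7.20 in Flk1+ cells, 6.73 and 7.76 FPKM in HE1, 8.52 and 8.83 FPKM in HE2 and 10.8 and 11.2 FPKM in progenitors. The mutant differences ran from -0.32 to 0.15.

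**Figure D5:**
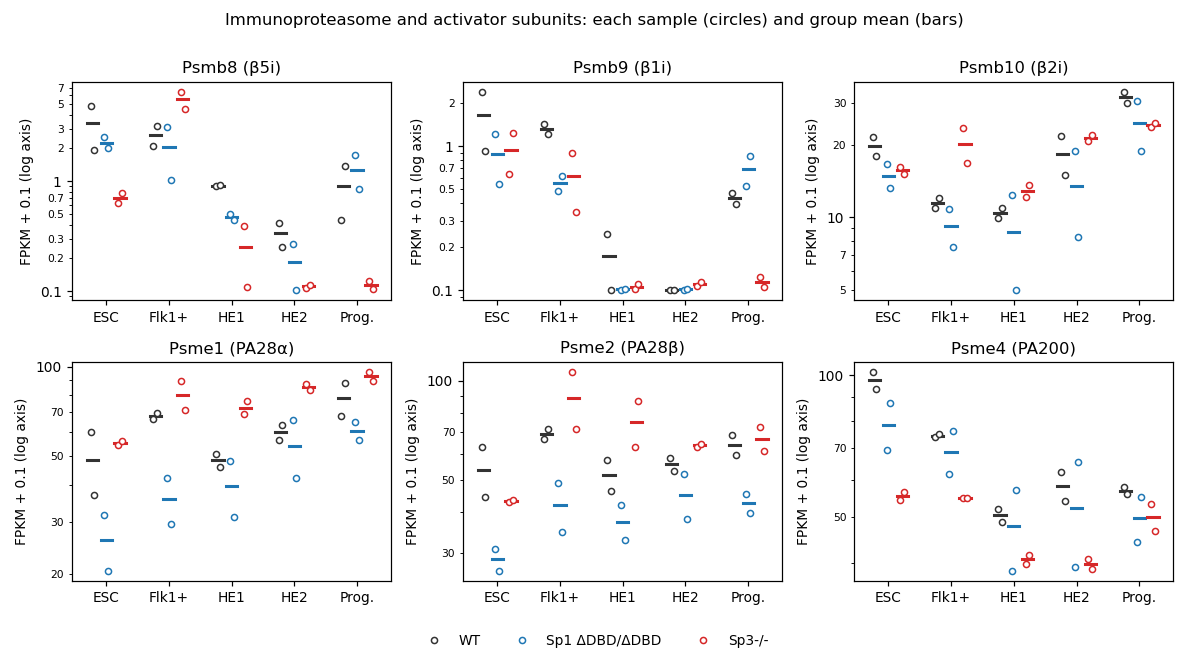
FPKM + 0.1 on a log axis (vertical) of the immunoproteasome subunits Psmb8, Psmb9 and Psmb10 and the activators Psme1, Psme2 and Psme4 in the 5 populations; circles are samples and bars are group means, with WT in black, Sp1 ΔDBD/ΔDBD in blue and Sp3-/- in red. Psmb8 and Psmb9 approached the lower end of the axis in HE2, Psmb10 stayed above 4 FPKM, and Psme1 and Psme2 were lowest in the Sp1 mutant in ESC and Flk1+ cells.

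Whether a mutant effect differed between populations was tested as the effect in a later population minus that in ESC. Few members differed. For the Sp1 mutant, limma called Psmc5 in Flk1+ cells (1.74% of all genes were called), no member in HE1 (3.99%) although 8 had an unadjusted p under 0.05, and Psma8 in HE2 (2.62%) and progenitors (3.15%). For the Sp3 mutant it called no member in Flk1+ cells (1.48% of all genes were called), HE1 (2.16%), HE2 (0.544%) or progenitors (1.34%). At an unadjusted p under 0.05 there were 7 members in Flk1+ cells, 3 in HE1, none in HE2 and 4 in progenitors. The share of all genes at this unadjusted threshold was not computed, so these counts have no background beside them.

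Of 11 genes that work with the proteasome, 1 was called in Sp1 ΔDBD/ΔDBD cells (Rad23b, a shuttle for ubiquitinated proteins, 0.32 in HE2, limma adjusted p = 0.04), where 4.70% of all genes were called higher and 4.97% lower. In Sp3-/- cells 1 was higher and 1 lower in ESC, 1 higher and 2 lower in Flk1+ cells and 1 higher in HE2, beside 5.40% and 5.91%, 6.69% and 5.94%, and 6.97% and 6.84% of all genes higher and lower. With 11 genes, counts of this size do not set the list apart from all genes. The ubiquitin receptor Adrm1 was the higher one, by 0.44, 0.72 and 0.50 (limma adjusted p = 0.0316, 0.00141 and 0.0139). AI314180, an older symbol of the proteasome adaptor Ecpas, fell by 0.97 in ESC (limma adjusted p = 0.00458) and 0.64 in Flk1+ cells, where Rad23b was lower as well.

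Of 8 regulators of proteasome gene expression, Keap1, which holds Nfe2l2 for degradation, was the one higher in Sp3-/- cells, in ESC (0.95 ± 0.14, limma adjusted p = 0.000445), Flk1+ cells (0.55), HE1 (0.48) and HE2 (0.60). Of all genes, 5.40%, 6.69%, 6.02% and 6.97% were called higher in these 4 comparisons. Nfe2l2 fell by 0.62 in Sp3-/- Flk1+ cells (limma adjusted p = 0.00508). In Sp1 ΔDBD/ΔDBD progenitors 2 of the 8 were lower, Nfe2l1 by 0.37 (limma adjusted p = 0.0399) and its partner Mafg by 0.67 (limma adjusted p = 0.0111), beside 5.04% of all genes. No regulator was called in the other populations of the Sp1 mutant.

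The peptides made by the immunoproteasome are carried into the endoplasmic reticulum and loaded on MHC class I molecules. Of 16 genes of this route and of interferon signalling, 1, 1, 1, 3 and 2 were called lower in ESC, Flk1+ cells, HE1, HE2 and progenitors of the Sp1 mutant, and 2, 2, 1, 2 and 3 in those of the Sp3 mutant. Of all genes, 3.26%, 2.62%, 4.35%, 4.97% and 5.04% were called lower in the Sp1 mutant and 5.91%, 5.94%, 4.87%, 6.84% and 4.77% in the Sp3 mutant. In each mutant at most 1 was called higher in a population. Canx was among those called lower in every population of the Sp3 mutant, and Pdia3 in its HE2 and progenitors. No Irf or Stat gene was called lower in a mutant, and Irf9 was called higher in Sp3-/- HE1. The peptide transporter Tap1 fell in Sp1 ΔDBD/ΔDBD Flk1+ cells by 2.41 ± 0.33 on the log2 scale (limma adjusted p = 0.000155) and in HE1, HE2 and progenitors by 1.07, 2.02 and 1.47. It also fell in Sp3-/- Flk1+ cells (-1.19, limma adjusted p = 0.025) and progenitors (-1.19, limma adjusted p = 0.0312). The class I molecule H2-D1 fell in Sp1 ΔDBD/ΔDBD HE2 and progenitors by 1.56 and 1.40. Irf8, a transcription factor of the interferon family, rose by 2.01 ± 0.57 in Sp1 ΔDBD/ΔDBD HE1 (limma adjusted p = 0.03). Of 8 genes for ubiquitin and its activation, at most 2 were called in a comparison of a mutant with WT, and those called were lower. The ubiquitin precursor Rps27a fell in 4 populations of the Sp3 mutant, by 0.61 in ESC, 0.74 in Flk1+ cells (limma adjusted p = 0.000485), 0.71 in HE2 and 0.54 in progenitors, and in the Sp1 mutant by 0.42 in ESC (limma adjusted p = 0.0297) and 0.43 in progenitors (limma adjusted p = 0.0196). Nploc4, a cofactor of the ATPase Vcp, fell by 0.53 in Sp1 ΔDBD/ΔDBD progenitors and by 0.47 in Sp3-/- HE1.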

How the data were processed

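Values of FPKM per gene came from the deposited table. The authors trimmed reads of stranded, ribosome-depleted total RNA libraries, aligned them with HISAT2 2.1.0 to mm10, calculated FPKM with StringTie 1.3.3, left out genes that stayed at or below 1 FPKM throughout, and applied quantile normalisation to all samples. The table has no counts, so depth is unknown. The log2(FPKM + 0.1) values were therefore tested in R 4.3.3 by limma 3.58.1, as 15 group means over 30 samples with an intensity trend (15 residual and 3.92 prior degrees of freedom), for 14525 genes above 1 FPKM in a sample. Differences on this scale understate the change of low genes. Benjamini-Hochberg adjustment was made separately in 23 comparisons (5 WT, 10 mutant, 8 differences between populations), with a threshold of 0.05. Samples were grouped by their deposited labels. Values for all samples were given for the catalytic, immunoproteasome and activator subunits and Psmf1, for the members called most often and, in the samples compared, for the largest called rise and fall of each comparison with a mean above 3 FPKM and no overlap. From each list of other genes, up to 3 called genes were named by size of change, with further called genes of the MHC class I and interferon list. A gene of one list is not reported here and was left out of its counts. Other genes named were chosen after their values were seen. The members and lists were chosen with earlier results of these data known. The test was checked on simulated data. Alternatives were a pseudocount of 1, other filters, trimmed-mean centring, a correction for exon GC content and length (cubic, within each sample), the replicate number as a block, each population fitted alone, and leaving out each sample. Promoters came from RefSeq.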

Additional observations from a re-analysis of the deposited data

Results flagged for a closer look

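The effect of the Sp1 mutation differed between populations by an interaction test for 2 members. Psmc5 was lower than WT in Sp1 ΔDBD/ΔDBD ESC and above WT in Sp1 ΔDBD/ΔDBD Flk1+ cells, and the effect in Flk1+ cells minus that in ESC was 0.67 on the log2 scale (limma adjusted p = 0.0375). After the GC and length correction the value was 0.68 (limma adjusted p = 0.125). Psma8 differed little from WT in Sp1 ΔDBD/ΔDBD ESC and was higher in HE2 and progenitors, with effects that exceeded the one in ESC by 2.75 (limma adjusted p = 0.0202) and 3.22 (limma adjusted p = 0.00918). With a pseudocount of 1 these were 1.25 and 1.46, and both stayed under an adjusted p of 0.05.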

How the results depend on the processing

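Depth is unknown, each group had 2 replicates, and the smallest p an exact permutation test of 2 against 2 samples allows is 0.333, so the mutant calls rest on a spread shared by all groups. Of 126 calls of members, 117 stood with a pseudocount of 1, 126 with no filter on low values, 107 of 108 with a mean above 3 FPKM and 122 with trimmed-mean centring. After the GC and length correction 85 stood, 38 were lost and 3 changed direction. Of 64 mutant calls, 13 stood with each population fitted alone. The reversed values were those of Psma1 (0.093) and Psmc6 (0.26) from WT Flk1+ cells to HE1 and Psma1 (-0.081) from WT HE1 to HE2, all after the GC and length correction. The cause of these changes was not tested.

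With the correction, 3 members were called from WT HE1 to HE2, 5 in Sp1 ΔDBD/ΔDBD Flk1+ cells, and 2 each for the Sp1 effect in HE2 and progenitors against ESC. With a pseudocount of 1, 1 member was called from WT HE2 to progenitors, 4 in Sp3-/- progenitors, 2 for the Sp1 effect in Flk1+ cells against ESC and 1 for the Sp3 effect there. With a mean above 3 FPKM, and likewise among members with a mean above 10 FPKM, 1 was called from WT HE2 to progenitors, 4 in Sp3-/- progenitors and 0 for the Sp1 effect in HE2 and in progenitors, since Psma8 was then not tested. Fitted alone, ESC gave 0 calls in the Sp1 mutant and 4 in the Sp3 mutant, HE1 gave 1 and 0, HE2 gave 0 and 0, and progenitors gave 1 and 0.

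Leaving out each sample in turn gave 11 to 20 calls from WT ESC to Flk1+ cells, 9 to 19 from Flk1+ cells to HE1, 1 to 8 from HE1 to HE2, 0 to 3 from HE2 to progenitors and 9 to 17 from ESC to progenitors. In the Sp1 mutant the ranges were 1 to 6 in ESC, 0 to 4 in Flk1+ cells, 0 to 9 in HE1, 2 to 11 in HE2 and 2 to 7 in progenitors, and in the Sp3 mutant 2 to 11, 0 to 10, 0 to 6, 0 to 10 and 1 to 9. The lowest counts came from leaving out a sample of the comparison itself. For the Sp1 effect against ESC the ranges were 0 to 2 in Flk1+ cells, 0 to 2 in HE1, 0 to 2 in HE2 and 1 to 6 in progenitors.

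Replicates of different genotypes share only a number. Within a population, WT and Sp1 ΔDBD/ΔDBD samples of one number deviated from their group means with correlations of 0.255 to 0.481 across 10052 genes, and WT and Sp3-/- samples with 0.0032 to 0.194. With this number blocked inside a population, the replicate block kept 63 of 67 calls, and 1 member was called for the Sp1 effect in HE1 against ESC. With this block and the GC and length correction 41 of 64 stood, with 5 calls in Sp1 ΔDBD/ΔDBD Flk1+ cells, 8 in Sp1 ΔDBD/ΔDBD progenitors and 7 in Sp3-/- HE1, and the value of Psmc6 in Sp1 ΔDBD/ΔDBD progenitors was -0.00222, as without the block. Same-numbered WT samples of HE1 and HE2 deviated with a correlation of 0.382, and those of HE2 and progenitors with 0.458. In Sp1 ΔDBD/ΔDBD cells these correlations were 0.649 and 0.544, and in Sp3-/- cells 0.161 and 0.127. Populations of a genotype therefore need not be independent of each other. With the number as a block within each genotype, all 59 calls of the WT steps stood and 15 members were called from HE1 to HE2.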
